A study of Mus musculus with 4 samples.

Results

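The genes described here encode initiation and elongation factors of protein synthesis and other proteins that share their names, such as kinases and inhibitors of these factors. They were taken from an array study of mouse mucosal mast cells by name: every gene probe whose gene name begins with Eif or Eef followed by a number. This gave 136 of the 41174 gene probes on the array, under 59 of its 27962 gene names. The cells had been differentiated in vitro, and mast cells stimulated with interleukin 18 (IL-18), a cytokine related to IL-1 that drives inflammation, were compared with unstimulated mast cells of the same kind. Each of 4 biological replicates was 1 array of 2 colours, on which the IL-18 stimulated sample carried the dye Cy5 and its own unstimulated control carried Cy3. The comparison asks which transcripts differ between the stimulated and the unstimulated cells of 1 pair. The sources used here state neither the strain and the origin of the cells nor how much IL-18 they received and for how long. No array had the dyes exchanged, so a difference between the dyes and an effect of IL-18 cannot be told apart for any single probe.

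Translation starts when eIF2, loaded with GTP and the initiator tRNA, joins the small ribosomal subunit together with eIF1, eIF1A and eIF3. The eIF4 factors bring the capped mRNA to this complex, and eIF5 and eIF5B complete the joining of the large subunit at the start codon. Elongation factor eEF1A then delivers each aminoacyl-tRNA and eEF2 moves the ribosome along the mRNA. Growth factor and stress pathways act on these steps mainly by phosphorylation (of eIF2 by its kinases, of the eIF4E-binding proteins by mTOR, of eEF2 by its own kinase), which an array of RNA does not measure. The messages of eEF1A, eEF1B and eEF2 belong to the class that begins with a run of pyrimidines and is controlled as a group at the level of translation. Activated mast cells produce large amounts of cytokines and chemokines by new protein synthesis.

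In the stimulated channel 57.9% to 62.7% of gene spots exceeded background clearly by the software's flag, and in the unstimulated channel 49.9% to 54.0%. Mean scanner signal was 2968 to 3737 in the stimulated channel, against 1156 to 1385 in the unstimulated channel, before any correction. No gene spot was saturated, and 1 spot of a translation factor (Eif1ay, replicate 4) carried the software's outlier flag and was left out, so that probe rests on 3 values. All 10 mast cell marker genes examined were well above background on all 4 arrays in both channels, and their summed scanner signal was 1730170 to 1853144 in stimulated cells, against 388045 to 441047 in unstimulated cells. After loess 5 of these 10 genes had a probe that was higher in stimulated cells, among them the mast cell protease genes Cma1 (log2 ratio 0.82) and Mcpt1 (0.69) and the IgE receptor gene Fcer1a (0.81), and Gata2 also had a probe that was lower (-0.29). Macrophage markers summed to 1973 to 2724 in stimulated cells, against 1251 to 1432 in unstimulated cells. Basophil and eosinophil markers summed to 1263 to 2421 in stimulated cells, against 586 to 1051 in unstimulated cells, and of these Epx and Prg2 were not well above background. Of 15 marker genes of other blood cells, 2 were higher in stimulated cells, Emr1 (log2 ratio 0.28) and Mcpt8 (0.41), and none was lower. Their part in the results below was not tested, and in bulk RNA fewer cells of a type and less of an RNA per cell cannot be told apart. Replicates 1 and 2 lay on 1 slide and replicates 3 and 4 on another. Log2 ratios of the translation factor probes correlated between arrays at r = 0.72 (replicates 1 and 4) to r = 0.94 (replicates 2 and 3).

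Of the 136 probes, 122 probes of 57 genes were tested. The other 14 were too dim, and 10 of those were not well above background on any array in either channel. They include the only probes of Eif2b3 and of Eif2s3y, the Y-linked copy of the eIF2 gamma gene. A probe passed at an adjusted p under 0.05 (limma, over all 24104 tested probes), and its log2 ratio is that of the stimulated over the unstimulated channel after loess normalization, in which the median probe of every brightness is set near 0.

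In IL-18 stimulated cells 20 translation factor probes were higher and 29 were lower, and 73 did not pass. That is 40.2% of the tested probes, where 34.1% of all tested probes passed, 18.1% higher and 16.1% lower. The translation factor probes are bright: of 4 brightness bands with equal numbers of probes, the top one held 70 of the 122, and there 45.7% of them passed, against 48.1% of all probes in that band. The share that passed in either direction was therefore near that of the band. By direction, 11 of the 70 were higher and 21 lower, where 24.7% of all probes in that band were higher and 23.3% lower. The median log2 ratio of the 122 translation factor probes was -0.03, against 0.02 for all tested probes. Of the translation factor probes, 10 (8.20%) passed with a log2 ratio of -0.5 or below, where 3.87% of all tested probes did, and 3 (2.46%) passed with 0.5 or above, where 1.68% did. At least 2-fold lower were 4 probes, of Eef2, Eif5a, Eif3s9 and Eif4g1 (3.28%, where 0.369% of all tested probes were), and no probe was at least 2-fold higher (0.158% of all tested probes were). These shares of large changes were not compared within brightness bands. The 10 large falls include 3 probes of Eef2 and 2 of Eif5a, so they are not 10 separate genes. Values lay above 0 on all 4 arrays for 23.1% of the probes with 4 values (33.4% of all) and below 0 on all 4 for 36.4% (24.9% of all).

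These directions are relative to probes of the same brightness. When each array was instead centred on the median of all its log2 ratios, the median of all tested probes stood at 0.43 and 92 translation factor probes were higher and 3 lower, where 58.7% of all tested probes passed, 58% higher and 0.73% lower. All 20 probes that were higher after loess were higher in that scaling too and lay above the median of 0.43. Of the 29 lower probes, 2 stayed lower (Eef1a2 and the Eef2 probe A_52_P318631), 15 did not pass and 12 turned higher, and 15 of the 29 lay below 0.43. The scanner software's own log ratio, which that software corrects for dye too, gave 24 higher and 35 lower. In that setting 26.4% of all tested probes were higher and 21.1% lower. It kept 20 of the 20 and 27 of the 29 calls and reversed none. With scale normalization between arrays 0 translation factor probes passed, and 0 of all tested probes did. The number of calls also rested on single arrays: without replicate 2 it was 8 higher and 13 lower, and without replicate 3 it was 10 higher and 17 lower, in fits where 9.1% and 12.1% of all tested probes passed. On both slides, all 20 higher probes had a mean log2 ratio above 0 and all 29 lower probes a mean below 0. The calls were made on these same arrays, so this agreement is no separate check of them.

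**Figure D1:**
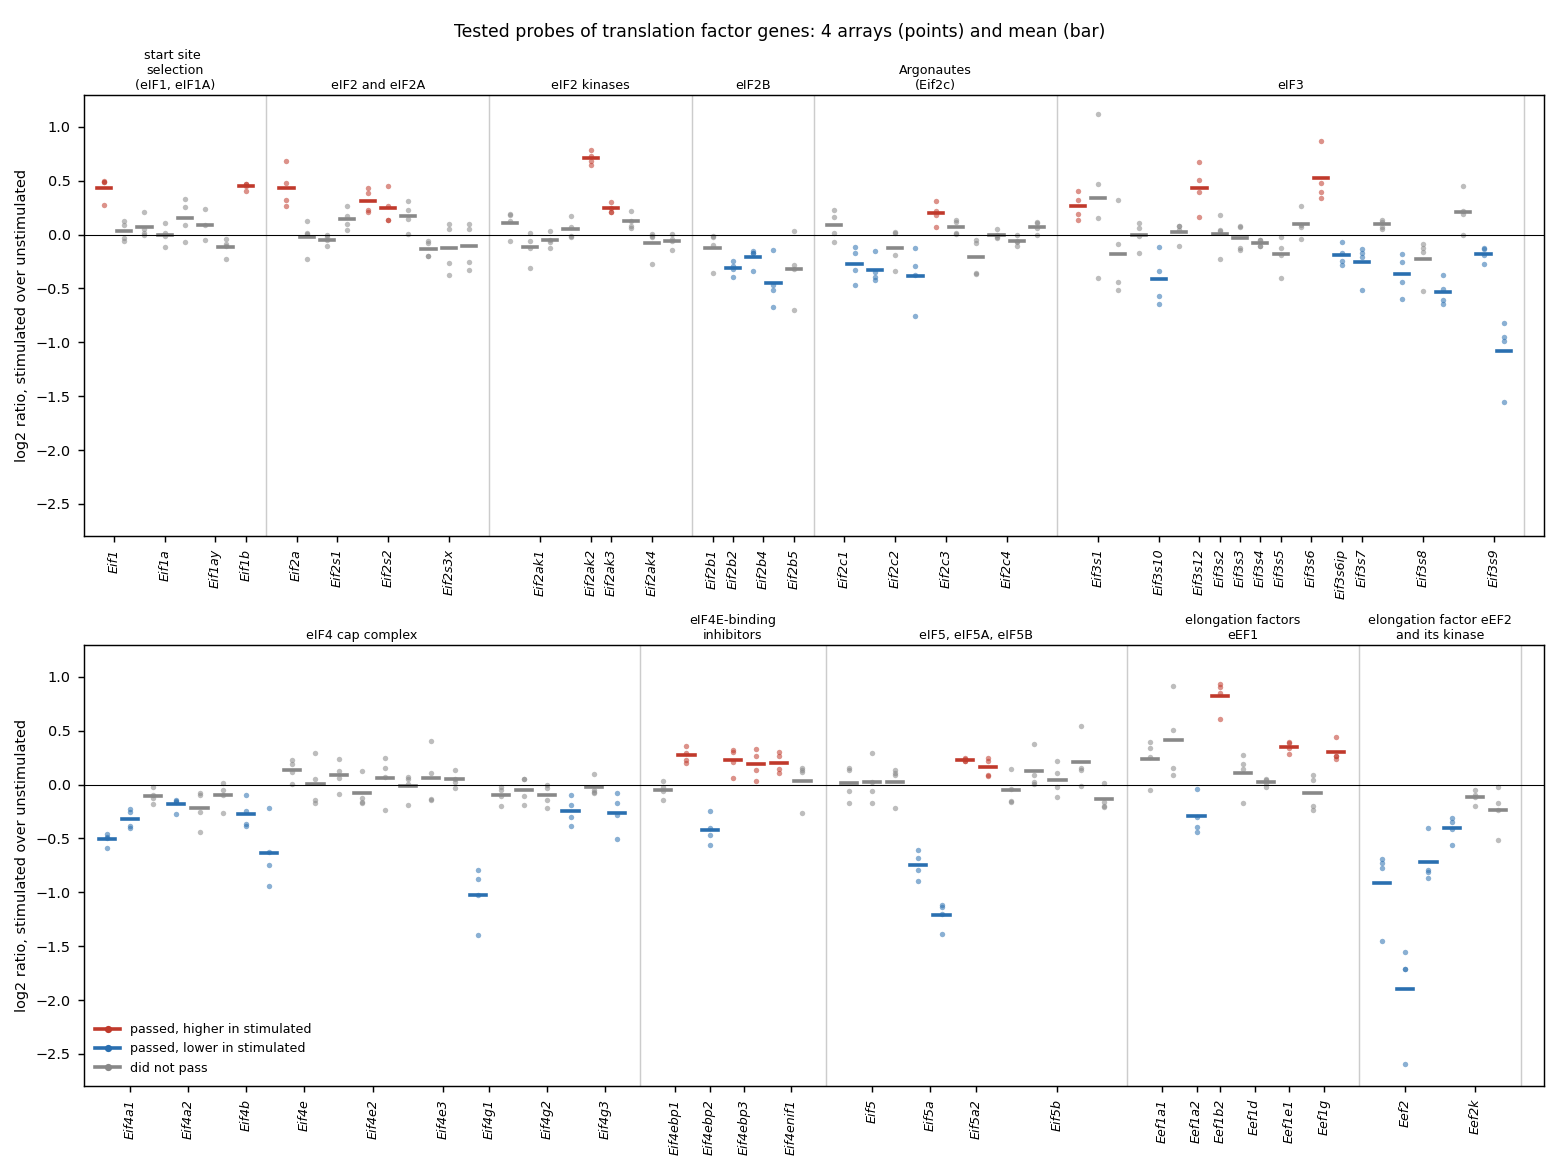
Log2 ratio of stimulated over unstimulated signal (vertical axis) for the 122 tested probes, grouped by the factor they encode, with 1 point for each array and a bar at the mean. The 20 probes that passed higher are red and the 29 that passed lower are blue, after loess; with median centring 12 of the blue probes turn higher and 2 stay lower.

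**Figure D2:**
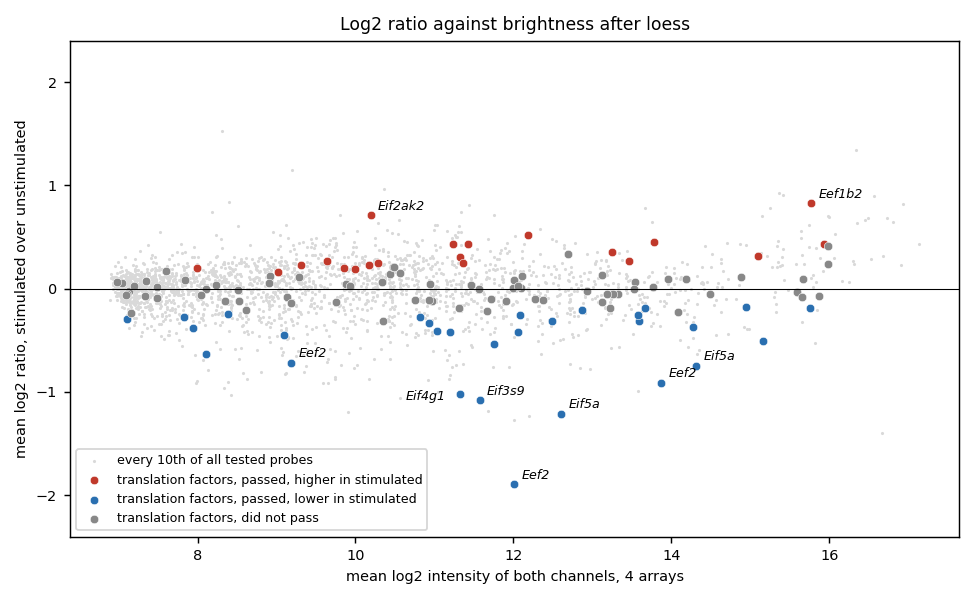
Mean log2 ratio against mean log2 intensity of both channels for the tested translation factor probes (large points) and for every 10th of all tested probes (small grey points). The lowest translation factor points are probes of Eef2, Eif5a, Eif3s9 and Eif4g1; after median centring the Eef2 probe lowest here is the only one of them that still passes as lower.

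Promoter sequences are printed because a share of the genes of this family carries an E-box, CACGTG, the site bound by Myc with Max and by related factors. Of the 58 current symbols that RefSeq gives to 107 of the 136 probes, 47 had a promoter window from 250 bases before to 50 bases after the annotated start (GRCm38.p6). The letters CACGTG, which read the same on both strands, stood in the window of 11 of the 47 genes (23.4%) and of 8.09% of all 27025 genes with a window. The tested probes of those genes number 20, of which 4 were higher and 9 lower after loess, with a median log2 ratio of -0.21. The 63 tested probes of the other genes had 10 higher, 15 lower and a median of -0.05. Of all tested probes 18.1% were higher and 16.1% lower. Eef2 gave 3 of the 9 lower probes, and Eif5a and Eif4a1 gave 2 each. With median centring Eif4a1 A_51_P113527 turned higher (0.82) and Eif5a A_51_P120201 did not pass (0.47). The difference between the medians was not tested. Stretches are shown for the 8 of these genes with a matched probe past the threshold, 5′ to 3′ on the gene's strand, with the E-box in capitals. The first 5 genes were lower in stimulated cells after loess and the last 3 were higher.
Eef2: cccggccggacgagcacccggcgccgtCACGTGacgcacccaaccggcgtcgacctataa
Eif5a: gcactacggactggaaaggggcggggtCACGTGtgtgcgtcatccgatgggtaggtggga
Eif4g1: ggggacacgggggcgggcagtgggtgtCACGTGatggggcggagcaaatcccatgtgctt
Eif4a1: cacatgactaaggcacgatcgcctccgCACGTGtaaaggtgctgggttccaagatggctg
Eef2k: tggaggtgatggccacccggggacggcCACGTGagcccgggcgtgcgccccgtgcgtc
Eif1b: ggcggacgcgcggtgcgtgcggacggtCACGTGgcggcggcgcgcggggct
Eif3k: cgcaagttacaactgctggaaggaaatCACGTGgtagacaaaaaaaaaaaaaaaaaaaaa
Eif5a2: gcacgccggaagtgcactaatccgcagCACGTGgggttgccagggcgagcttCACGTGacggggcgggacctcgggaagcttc
The Eef2 stretch is chr10:81176561-81176620 on the plus strand and its E-box begins 43 bases before the start. The Eif5a stretch is chr11:69921428-69921487 on the minus strand, the Eif4g1 stretch chr16:20672646-20672705 on the plus strand and the Eif4a1 stretch chr11:69672580-69672639 on the minus strand. The Eef2k stretch is chr7:120842773-120842830 (plus), the Eif1b stretch chr9:120492555-120492605 (plus), the Eif3k stretch chr7:28981900-28981959 (minus) and the Eif5a2 stretch chr3:28781108-28781190 (plus), which holds the motif at 2 places. The same letters thus stand before genes that moved either way, and a match is a description of the sequence only.

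Elongation factor eEF2, the GTPase that translocates the ribosome, showed the largest fall of the family. Its probe A_52_P318631 had normalized log2 intensities of 11.14, 10.99, 11.00 and 11.10 in stimulated cells (replicates 1 to 4), against 12.69, 12.71, 12.71 and 13.70 in unstimulated cells. Every stimulated value was below every unstimulated value. The mean log2 ratio was -1.89 ± 0.47 (SD, n = 4), 3.72-fold lower in stimulated cells, with an adjusted p of 0.00125. In the uncorrected scanner signal of this probe, too, stimulated cells gave 2592 to 3568 and unstimulated cells 4129 to 8120. Over all gene spots the mean scanner signal was higher in the stimulated channel. The median was close in both channels, at 93.2 to 104.6 in the stimulated and 90.2 to 102.4 in the unstimulated channel.

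The other probes of Eef2 were lower as well after loess. Probe A_52_P81562 had log2 ratios of -0.69, -0.77, -0.73 and -1.45 (mean -0.91 ± 0.36, adjusted p = 0.00439), and A_52_P605455 had -0.40, -0.81, -0.79 and -0.87 (mean -0.72 ± 0.22, adjusted p = 0.00245). All 12 values of the 3 probes were thus below 0, and replicate 4 gave the lowest value of each. The size differed between the probes by 1.18 on the log2 scale. With median centring A_52_P81562 stood at 0.25 and A_52_P605455 at -0.18, and neither passed, while A_52_P318631 stayed lower. The kinase that phosphorylates and inhibits eEF2, encoded by Eef2k, was lower at its brightest probe, with -0.31, -0.41, -0.34 and -0.56 (mean -0.41 ± 0.11, adjusted p = 0.00389, 0.39 with median centring and not passed). Its other probes had means of -0.12 and -0.24 and did not pass. Over eEF2 and its kinase 4 of 6 probes were lower and none higher, where 16.1% of all tested probes were lower and 18.1% higher. Their median log2 ratio was -0.56, and under median centring their median was 0.40 below that of all probes.

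Among the eEF1 factors more probes were higher than lower. Eef1b2, a subunit of the exchange factor that reloads eEF1A with GTP, had normalized log2 intensities of 16.07, 16.24, 16.21 and 16.22 in stimulated cells, against 15.46, 15.33, 15.27 and 15.36 in unstimulated cells. The groups did not overlap. Its log2 ratio of 0.83 ± 0.15 (SD, n = 4, adjusted p = 0.000982), or 1.77-fold, was the largest rise of the family. Eef1e1, a small protein held in the multi-tRNA synthetase complex, followed with 0.28, 0.39, 0.34 and 0.40 (mean 0.35 ± 0.05, adjusted p = 0.00298). Eef1g, the gamma subunit of the exchange factor, was higher at A_51_P401471 with 0.24, 0.26, 0.27 and 0.44 (mean 0.30 ± 0.10, adjusted p = 0.00749). Its other probe, A_52_P609138, had values on both sides of 0 and a mean of -0.07, and that probe passed as lower (-0.26) in the software's log ratio and higher (1.35) with median centring. The delta subunit Eef1d had a mean of 0.11 ± 0.19 at its brightest probe and did not pass.

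Eef1a1, the main form of the tRNA-delivering factor and among the most abundant proteins of most cells, did not pass at either probe. Probe A_51_P118765 had log2 ratios of 0.34, 0.40, 0.26 and -0.05 (mean 0.24 ± 0.20, adjusted p = 0.0536), and A_52_P299505 had 0.91, 0.51, 0.15 and 0.09 (mean 0.42 ± 0.38, adjusted p = 0.0516). Replicate 4 was the lowest at both probes, and without it A_51_P118765 passed at 0.33 (adjusted p = 0.00567). Eef1a2, the isoform of muscle and nerve, was lower at its dim probe, with -0.04, -0.44, -0.30 and -0.39 (mean -0.29 ± 0.18, adjusted p = 0.0234). It did not pass without replicate 2 (adjusted p = 0.118), without replicate 3 (0.0927) or without replicate 4 (0.0516). Of 9 eEF1 probes 3 were higher and 1 lower, where 18.1% of all tested probes were higher and 16.1% lower. The median log2 ratio of these 9 probes was 0.24.

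**Figure D3:**
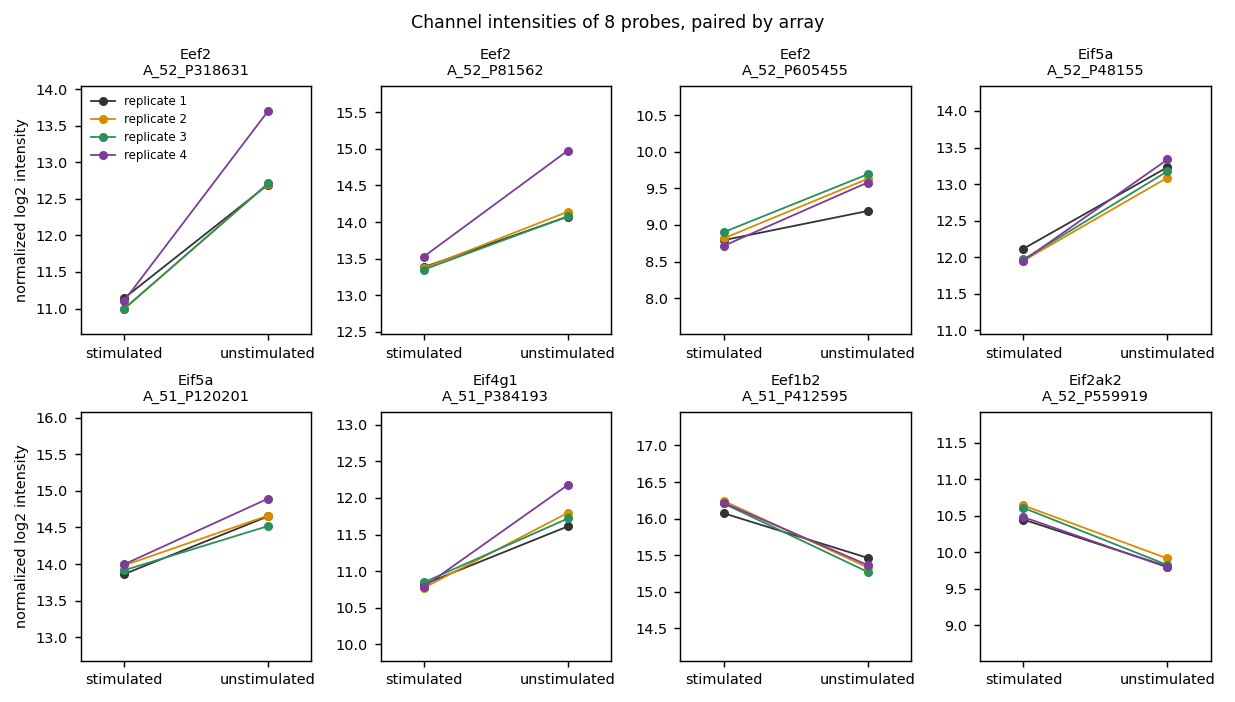
Normalized log2 intensity of 8 probes in the stimulated (left) and the unstimulated channel (right) of each array, joined by replicate; every panel spans the same number of log2 units. The 3 Eef2 probes, the 2 Eif5a probes and the Eif4g1 probe are lower in stimulated cells on every array and those of Eef1b2 and Eif2ak2 are higher, after loess; with median centring the Eif5a probe A_51_P120201 and the Eef2 probe A_52_P81562 have means above 0.

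Eif5a and Eif5a2, which encode a pair of closely related proteins, moved in opposite directions. eIF5A carries the amino acid hypusine and helps the ribosome over runs of proline and at stop codons. Eif5a probe A_52_P48155 had normalized log2 intensities of 12.12, 11.95, 11.97 and 11.95 in stimulated cells, against 13.23, 13.09, 13.18 and 13.34 in unstimulated cells. Its log2 ratio of -1.21 ± 0.12 (adjusted p = 0.000403), 2.31-fold lower in stimulated cells, had the lowest adjusted p of the family. With median centring this probe stood at -0.22 and did not pass. Probe A_51_P120201 had -0.79, -0.68, -0.61 and -0.90 (mean -0.74 ± 0.13, adjusted p = 0.00102) but stood at 0.47, not passed, with median centring. Eif5a2, the second gene, was higher at both probes, with 0.22, 0.24, 0.22 and 0.25 at A_52_P181759 (mean 0.23 ± 0.02, adjusted p = 0.00805) and a mean of 0.16 ± 0.09 at A_51_P211923 (adjusted p = 0.0442). The Eif5a2 call at A_52_P181759 was lost without replicate 2 (adjusted p = 0.0617) or replicate 3 (0.0517). The difference between the 2 genes was not itself tested. Cross-hybridization between them was not tested. Eif5, which makes eIF2 hydrolyse its GTP at the start codon, had means of 0.02 to 0.03 at 3 probes, and Eif5b, the GTPase of subunit joining, had means of -0.14 to 0.21 at 5 probes, none past the threshold.

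The eIF4 factors, which bind the cap and unwind the mRNA, had no probe higher and 8 of 23 probes lower after loess. Of all tested probes 18.1% were higher and 16.1% lower. The median log2 ratio of the 23 was -0.10. With median centring 18 of the 23 were higher, where 58% of all tested probes were, and none was lower. Their median was then 0.27 above that of all probes. Eif4g1, the scaffold that joins the cap-binding protein to eIF3, had normalized log2 intensities of 10.82, 10.77, 10.85 and 10.79 in stimulated cells, against 11.61, 11.80, 11.72 and 12.18 in unstimulated cells at A_51_P384193. The groups did not overlap, and the log2 ratio was -1.02 ± 0.27 (adjusted p = 0.00152, -0.19 and not passed with median centring). A dim second probe of Eif4g1 had a mean of -0.09 and did not pass. Eif4a1, the RNA helicase, had -0.46, -0.50, -0.49 and -0.59 at A_51_P113527 (mean -0.51 ± 0.06, adjusted p = 0.00125), which turned into 0.82, higher, with median centring. Its second probe was lower (-0.32 ± 0.09) and its remaining probe did not pass (-0.11 ± 0.07).

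Eif4b, the cofactor of the helicase, had -0.22, -0.75, -0.62 and -0.94 at A_52_P390114 (mean -0.63 ± 0.30, adjusted p = 0.00824). Replicate 1 was the least lowered, and without replicate 2 the probe did not pass (adjusted p = 0.0569). The brightest Eif4b probe had a mean of -0.10 ± 0.12 and did not pass. Eif4a2, the paralog of Eif4a1, was lower at 1 of 2 probes (-0.18 ± 0.06, adjusted p = 0.0221, 0.94 and higher with median centring), a call lost without replicate 2 (adjusted p = 0.0929) or replicate 3 (0.0917). Eif4g2, an eIF4G relative without the site for the cap-binding protein, had a mean of -0.05 at its brightest probe, which did not pass, while Eif4g2 and its relative Eif4g3 were each lower at 1 dimmer probe (-0.24 and -0.26). Eif4e, the cap-binding protein itself, had 0.22, 0.12, 0.01 and 0.19 at its brightest probe (mean 0.14 ± 0.10, adjusted p = 0.0813). Neither Eif4e nor its relatives Eif4e2 and Eif4e3 had a probe past the threshold, among 8 tested probes with means of -0.08 to 0.14.

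The eIF4E-binding inhibitors compete with eIF4G for the cap-binding protein. Of their 7 probes 4 were higher and 1 was lower after loess, where 18.1% of all tested probes were higher and 16.1% lower. With median centring 6 were higher, where 58% of all tested probes were, and none was lower. Eif4ebp2 was the one lower after loess, with -0.40, -0.47, -0.25 and -0.56 (mean -0.42 ± 0.13, adjusted p = 0.00447, 0.40 with median centring and not passed). Both probes of Eif4ebp3 were higher, with 0.32, 0.21, 0.31 and 0.06 at A_52_P278497 (mean 0.23 ± 0.12, adjusted p = 0.0255) and a mean of 0.19 at the other. That Eif4ebp3 probe missed the threshold without replicate 1 (adjusted p = 0.0515), replicate 2 (0.108) or replicate 3 (0.118). Eif4ebp1 was higher at A_52_P283674, with 0.36, 0.20, 0.23 and 0.29 (mean 0.27 ± 0.07, adjusted p = 0.00807), while its brightest probe had a mean of -0.05 ± 0.07 and did not pass. Eif4enif1, which carries eIF4E into the nucleus, was higher at 1 of 2 tested probes (0.20 ± 0.09, adjusted p = 0.024).

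The eIF2 kinases each answer to a different stress. Eif2ak2, the double-stranded RNA sensor PKR, had normalized log2 intensities of 10.45, 10.64, 10.61 and 10.48 in stimulated cells, against 9.81, 9.92, 9.83 and 9.79 in unstimulated cells. The groups did not overlap, and the log2 ratio was 0.71 ± 0.06 (adjusted p = 0.000665), or 1.63-fold. Eif2ak3, the sensor of unfolded protein PERK, had 0.21, 0.21, 0.25 and 0.31 (mean 0.25 ± 0.04, adjusted p = 0.00809) and missed the threshold without replicate 2 (adjusted p = 0.0534) or replicate 3 (0.0527). The haem-regulated kinase Eif2ak1 had 0.11 ± 0.12 at its brightest probe and the amino acid sensor Eif2ak4 had 0.12 ± 0.07, and none of the 7 probes of these 2 genes passed. Over the 4 kinases, 2 of 9 probes were higher and none was lower, where 18.1% of all tested probes were higher and 16.1% lower.
PKR is a known interferon-induced gene, and a stretch of 30 bases around the letters GAAA, any 2 bases and GAAA again, a core of the interferon-stimulated response element, is shown for it because it is the gene with the largest rise among the kinases. It lies at chr17:78882535-78882564 on the minus strand, with the motif in capitals from base 19 after the start.
Eif2ak2: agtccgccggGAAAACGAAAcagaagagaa
That motif, searched on both strands, stood in the window of 4 of the 47 genes (8.51%, against 3.99% of all genes), and the other three were Eif2s1, Eif2s3x and Eif3a, whose brightest probes did not pass. A core of the NF-kB site (GGG, any 2 bases, TTTCC) stood in a window of 1 of the 47 genes (2.13%, against 1.89% of all genes), Eef2k.

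The substrate of these kinases is eIF2. Its alpha subunit gene, Eif2s1, had -0.05, -0.01, -0.03 and -0.11 at the brightest probe (mean -0.05 ± 0.04) and did not pass, and with median centring it was higher at 1.04. The beta subunit gene, Eif2s2, had 0.23, 0.44, 0.39 and 0.21 (mean 0.31 ± 0.11, adjusted p = 0.0084) and a second probe was higher at 0.25. The brightest Eif2s2 probe missed the threshold without replicate 2 (adjusted p = 0.0588) or replicate 3 (0.0535). The X-linked gamma subunit gene, Eif2s3x, had -0.13 ± 0.08 and did not pass. Eif2a, a separate factor that can deliver initiator tRNA without GTP, was higher at A_52_P620793 with 0.68, 0.48, 0.27 and 0.32 (mean 0.44 ± 0.19, adjusted p = 0.00775), which became 0.0549 without replicate 2. No probe of eIF2 or eIF2A was lower among 10, where 16.1% of all tested probes were. With median centring 9 of the 10 were higher, where 58% of all tested probes were.

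The exchange factor eIF2B, which reloads eIF2 with GTP and is blocked by phosphorylated eIF2, had 3 of 5 probes lower and none higher after loess. Of all tested probes 16.1% were lower and 18.1% higher. The median of the 5 was -0.31. With median centring 3 were higher, where 58% of all tested probes were, and their median was 0.36 above that of all probes. Eif2b2 had -0.40, -0.29, -0.32 and -0.24 (mean -0.31 ± 0.06, adjusted p = 0.00488). Eif2b4 was lower at both probes, with -0.14, -0.51, -0.47 and -0.68 at A_52_P425589 (mean -0.45 ± 0.22, adjusted p = 0.0105) and a mean of -0.21 ± 0.09 at the other. That first Eif2b4 probe lost its call without replicate 2 (adjusted p = 0.0674) or replicate 3 (0.0547). Eif2b5, the catalytic subunit, had 0.04, -0.28, -0.32 and -0.70 (mean -0.32 ± 0.30, adjusted p = 0.0615), and with median centring it stood at 0.40 and did not pass. Replicate 1 stood above 0 there, and without it the probe passed as lower (-0.43, adjusted p = 0.012).

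eIF1 and eIF1A hold the scanning ribosome open until it meets a start codon. Eif1 had 0.27, 0.49, 0.49 and 0.49 at A_51_P283837 (mean 0.44 ± 0.11, adjusted p = 0.00304), and Eif1b, the second eIF1 gene, had 0.40, 0.47, 0.45 and 0.47 (mean 0.45 ± 0.03, adjusted p = 0.00142). Both were higher on all 4 arrays, while a second probe of Eif1 had a mean of 0.03 and did not pass. Eif1a, on chromosome 18, had means of 0.00 to 0.15 at 3 probes, and the probes labelled Eif1ay, which RefSeq now assigns to the X-linked Eif1ax, had means of 0.09 and -0.11. None of these passed. Of the 8 probes of this step 2 were higher and none was lower, where 18.1% of all tested probes were higher and 16.1% lower. With median centring all 8 were higher, where 58% of all tested probes were.

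eIF3, the largest initiation factor, was mixed: of 22 probes 3 were higher and 7 lower after loess, with a median of -0.06. Of all tested probes 18.1% were higher and 16.1% lower. With median centring 19 of the 22 were higher, where 58% of all tested probes were, and none was lower. The array names its subunits by older symbols, so that Eif3s9 is now Eif3b, Eif3s8 Eif3c, Eif3s6 Eif3e, Eif3s12 Eif3k, Eif3s1 Eif3j1 and Eif3s10 Eif3a. Eif3s9 (Eif3b), a scaffold subunit, had -0.82, -0.99, -0.95 and -1.56 at A_52_P414692 (mean -1.08 ± 0.33, adjusted p = 0.00206), and its other probe was also lower at -0.18 ± 0.07. With median centring A_52_P414692 stood at -0.22 and did not pass, and the other probe was higher at 1.12. Eif3s8 (Eif3c) had -0.50, -0.65, -0.38 and -0.61 at A_51_P443322 (mean -0.53 ± 0.12, adjusted p = 0.00193, 0.35 and not passed with median centring). Of the other 4 Eif3s8 probes 1 was lower and 3 did not pass, with means of -0.37 to 0.21, so the gene's probes did not move together.

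The higher eIF3 probes belonged to the subunits eIF3e, eIF3k and the loosely bound eIF3j. Eif3s6 (Eif3e) had 0.48, 0.40, 0.34 and 0.87 at A_52_P375037 (mean 0.52 ± 0.24, adjusted p = 0.0081), while its brighter probe had 0.10 ± 0.13 and did not pass. Eif3s12 (Eif3k) had 0.67, 0.50, 0.39 and 0.16 (mean 0.43 ± 0.21, adjusted p = 0.0106), which became 0.0682 without replicate 2. Eif3s1 (Eif3j1) had 0.40, 0.32, 0.19 and 0.14 at A_52_P202055 (mean 0.26 ± 0.12, adjusted p = 0.0159), and missed the threshold without replicate 2 (adjusted p = 0.0925) or replicate 3 (0.0586). Eif3s10 (Eif3a), the largest subunit, had a mean of -0.0046 ± 0.12 at its brightest probe and was lower at another (-0.42 ± 0.24, adjusted p = 0.0158). The subunits Eif3s2, Eif3s3, Eif3s4 and Eif3s5 had means of -0.18 to 0.01 and did not pass, and Eif3s6ip and Eif3s7 were lower (-0.19 and -0.26).

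The rule on names also takes in genes that are no translation factors in the narrow sense. These are the kinases, the eIF4E-binding inhibitors and Eef1e1 described above, and 4 Argonaute genes. All of them are counted among the translation factor probes. Eif2c1, Eif2c2, Eif2c3 and Eif2c4 are the older names of the Argonautes Ago1 to Ago4, the proteins that carry small RNAs to their target messages. Of their 11 tested probes 3 were lower (1 of Eif2c1 and 2 of Eif2c2, means -0.39 to -0.27) and 1 of Eif2c3 was higher (0.20). Of all tested probes 16.1% were lower and 18.1% higher. With median centring 6 of the 11 were higher, where 58% of all tested probes were, and none was lower. The lower Eif2c2 probe A_51_P180001 became higher at 0.46. All 4 Argonaute calls were lost without replicate 2, and 3 of them (all but Eif2c2 A_51_P180001) without replicate 3. Without the Argonaute probes, but with those of the kinases, the inhibitors and Eef1e1, 19 of 111 probes were higher and 26 lower.

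**Figure D4:**
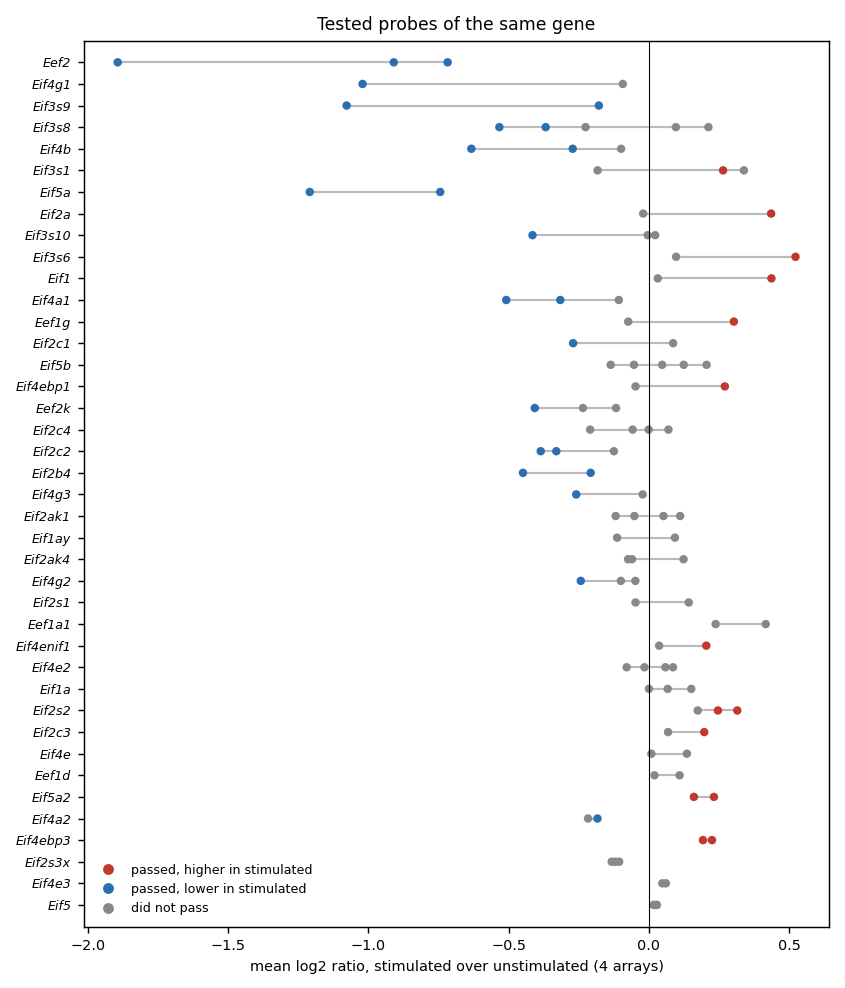
Mean log2 ratio over 4 arrays of each tested probe (points) for the 40 genes with more than 1 tested probe, joined by a line for each gene and ordered by range. Eef2 and Eif5a have every probe lower and Eif5a2 and Eif4ebp3 every probe higher, and no gene has probes past the threshold on both sides after loess.

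Probes of 1 gene often differed in size but not, after loess, in the direction of their calls. Among the 40 genes that had several tested probes, all probes were higher in 2 (Eif4ebp3 and Eif5a2) and lower in 4 (Eef2, Eif5a, Eif2b4 and Eif3s9). In 9 genes some but not all probes were higher and in 11 some but not all were lower, while 14 had none past the threshold. After loess no gene had calls in both directions, where 314 of the 5403 other genes with more than 1 tested probe did (5.81%). In the software's log ratio Eef1g (0.32 and -0.26) and Eif3s8 (0.21 and -0.54) had calls in both directions. With median centring Eef2k did (0.27 and -0.24). The median range between the probes of 1 gene was 0.24 on the log2 scale, against 0.20 for other genes. Of 17 genes with 1 tested probe 6 were higher, 5 lower and 6 did not pass. Counting the brightest probe of each gene alone, 14 of 57 genes were higher and 14 lower.

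**Figure D5:**
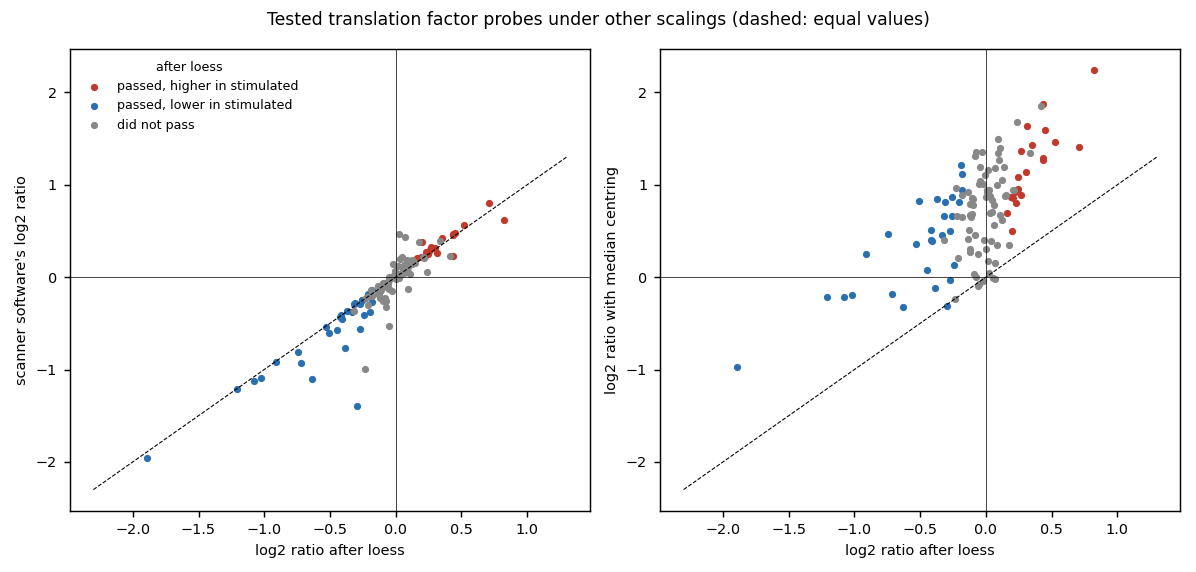
Log2 ratio of each tested probe after loess (horizontal axis) against the scanner software's log2 ratio (left) and against the ratio after median centring of each array (right), with a dashed line at equal values. The software's ratios lie near the line, while median centring lifts nearly all probes above it, so that 12 probes lower after loess (blue) are called higher there.

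Genes outside the naming rule act on the same steps. A list of 49 gene names, in which mTOR stands under 2 names, was written with earlier results of these data known. After loess 9 of its 83 tested probes were higher and 28 lower (44.6%), with a median of -0.13. Of all tested probes 34.1% passed, 18.1% higher and 16.1% lower. The list's median log2 intensity was 10.17, and in the brightness band that holds this value 46.0% of all probes passed. With median centring 46 were higher and 1 lower, where 58% of all tested probes were higher and 0.73% lower. The same shares are the background for the counts of each branch below. Among the poly(A)-binding and cap complex partners 11 of 22 probes were lower and 2 higher, including Mknk2, a kinase of eIF4E (-0.51 ± 0.10, adjusted p = 0.0018), and Pdcd4, an inhibitor of eIF4A (-0.52 ± 0.18, adjusted p = 0.0042). In the mTOR branch 5 of 21 probes were lower and 1 higher. Lower were Rptor (-0.83 ± 0.53, adjusted p = 0.0165), the adaptor that brings the eIF4E-binding proteins to mTOR, and Akt1s1 (-0.83 ± 0.36, adjusted p = 0.0056), an inhibitor of the same complex. Of 2 probes of mTOR itself, listed under an older and a newer name, 1 was higher (0.38 ± 0.10) and 1 did not pass (-0.20 ± 0.27).

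On the eIF2 side, Ppp1r15a, which directs a phosphatase to eIF2 alpha, was lower by the most of this list (-1.07 ± 0.37, adjusted p = 0.0029), and Impact, an inhibitor of the kinase Eif2ak4, was higher (0.38 ± 0.10, adjusted p = 0.004). Of 9 probes in that branch 2 were higher and 3 lower. In termination and recycling 3 of 14 probes were higher and 3 lower, and the release factor genes Etf1 and Gspt1 each had probes in both directions. Of 17 probes for mitochondrial and other specialized factors and for the enzymes that modify eIF5A and eEF2, 1 was higher and 6 lower. 15 probes carry a factor symbol in RefSeq but another name on the array, or belong to enzymes that methylate these factors. The 3 probes of Eif2d among them also stand in the list of 49 gene names, 1 of them lower in both counts. Of the 15 probes 2 were higher and 4 lower, among them a probe of Eif6, the factor that keeps ribosomal subunits apart (-0.76 ± 0.25).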

How the data were processed

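The deposited intensity values used were, for both dyes, a spot's mean signal and its median background; per the submitters' processing notes, the authors used Agilent Feature Extraction 9.1. The deposited files also hold log10 ratios of Cy5 over Cy3 for each spot, corrected for background and dye by that software per the file headers, and the series table deposited beside them repeats those log10 ratios; both were used as alternatives. The software's flags were used as deposited. Limma 3.58.1 in R 4.3.3 corrected background (normexp, offset 50), normalized each array by loess with no weight on control and flagged spots, and averaged spots of a probe. A probe was tested if 1 channel was flagged well above background on 3 or more of the 4 arrays and 3 values were left. The mean log2 ratio was tested against 0 (lmFit, eBayes, two-sided, Benjamini-Hochberg over 24104 probes, threshold 0.05), which is the paired test, since each array holds a stimulated sample and its own control per the labels. The smallest p of an exact sign-flip test here is 0.125. Channel intensities shown were taken after loess and Aquantile. The steps were run on simulated arrays with the fitted brightness trend, independent noise and changes added to a small set of brighter probes. Those arrays held no slide effect and no dye difference of single probes, so they cannot test for either. The number of arrays limits the precision, and p-values measure the spread between these 4 pairs.

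The members and gene lists were chosen with earlier results of these data known. Single probes given in full are, among those that passed with 1 sign on every array, the 12 that rose most and the 12 that fell most, and the brightest tested probe of a list of central factors; other probes were named after their values were seen. Gene names are those of the array, with current symbols where the accession is in RefSeq (GRCm38.p6). Promoter sequences are RefSeq's of that build.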

Additional observations from a re-analysis of the deposited data

Results flagged for a closer look

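In 6 of 46 named probes 1 array stood far from the other three, by a test on the gap that chance alone meets in about 5% of groups of 4. Replicate 4 was the low one for Eef2 at A_52_P318631 (-2.60) and A_52_P81562 (-1.45), and the high one for Eef1g at A_51_P401471 (0.44). Replicate 1 was the one nearest 0 for Eef2 at A_52_P605455 (-0.40) and for Eif1 at A_51_P283837 (0.27), and the lowest for Eif4a2 at A_51_P298570 (-0.27). The Eef2, Eif1 and Eef1g probes named here kept their calls when any 1 array was left out.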

How the results depend on the processing

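After loess 20 probes were higher and 29 lower. Median centring gave 92 and 3 with a member median of 0.80, and among named probes that passed in at least 1 of the 2 scalings it reversed these: Eef2 A_52_P81562 (0.25), Eif5a A_51_P120201 (0.47), Eif3s8 A_51_P443322 (0.35), Eif4a1 A_51_P113527 (0.82), Eif2b4 A_52_P425589 (0.074), Eif4ebp2 (0.40), Eef2k A_51_P461504 (0.39) and Eif4a2 A_51_P298570 (0.94), and, among probes that had not passed, Eif2s1 A_51_P448340 (1.04), Eif2s3x A_51_P256154 (0.92), Eif3s10 A_52_P524895 (1.11), Eif4b A_52_P269365 (0.79), Eif4g2 A_51_P306066 (1.02), Eif4ebp1 A_51_P330428 (1.19), Eif5b A_51_P172441 (1.01) and Eef1g A_52_P609138 (1.35). Eif2b5 A_51_P151968 also changed sign (0.40) and passed in neither. Scale normalization between arrays gave 0 and 0 (18 of 122 at an unadjusted p under 0.05 in limma) and 0 calls over all probes; the cause was not tested. One probe for each gene gave 14 and 14, from fewer probes. Leaving out 1 replicate gave 8 to 25 higher and 13 to 34 lower, with member medians of -0.04 to -0.01; 8 of the 20 and 13 of the 29 were called in all 4 such fits. The software's log ratio and the series table each gave 24 and 35, offset 0 gave 19 and 30, no filter on dim probes 19 and 29, the strict filter 22 and 29, outlier spots kept 20 and 29, the trend and robust settings 26 and 34, and slide as a random block 22 and 31. Without the pairing, as groups with no replicate block, the counts were 20 and 28 with a median of -0.03. In those settings no named probe that passed before or after changed sign. Among named probes that passed in neither, Eif3s10 A_52_P524895 and Eif4g2 A_51_P306066 changed sign in the software's log ratio (0.068 and 0.00042) and in the series table, Eif5 A_52_P533304 with scale normalization and without replicate 3 or 4, Eif3s10 A_52_P524895 without replicate 1, and Eef1d A_51_P493079 with scale normalization. The share of all tested probes called moved with the setting too: it was 34.1% after loess, 58.7% with median centring, 47.5% in the software's log ratio and in the series table, 33.5% with offset 0, 19.1% with no filter on dim probes, 40.6% with the strict filter, 34% with outlier spots kept, 40% with the trend and robust settings, 36.3% with slide as a random block, 28.7% with no replicate block, and 39.9%, 9.1%, 12.1% and 28.8% without replicates 1, 2, 3 and 4 in turn. Signal over background limits the 14 dim probes that were not tested.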

Other observations

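Of 3 probes of Eif3s1 (Eif3j1), 2 ran against each other across the arrays. Probe A_51_P211341 had log2 ratios of 1.12, 0.47, 0.16 and -0.40 for replicates 1 to 4, and A_52_P654965 had -0.52, -0.44, -0.09 and 0.32. Their means over the first slide were 0.80 and -0.48, and over the second -0.12 and 0.11, and neither passed the threshold (adjusted p = 0.257 and 0.317 in limma). The third probe, A_52_P202055, was above 0 on all 4 arrays. Eif5b and Eif4e3 likewise held probes whose slide means lay on opposite sides of 0, with -0.16 and 0.05 for Eif5b at A_51_P172441 and -0.14 and 0.26 for Eif4e3 at A_52_P287338.

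The genes called in every fit that left out 1 array were, on the lower side, Eef2 at all 3 probes, Eif5a at both, Eif4a1 at 2 of 3, and 1 probe each of Eef2k, Eif2b2, Eif3s8, Eif3s9, Eif4ebp2 and Eif4g1. On the higher side they were Eef1b2, Eef1e1, Eef1g, Eif1, Eif1b, Eif2ak2, Eif3s6 and Eif4ebp1, with 1 probe each.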
